A study of Cucumis sativus and Manihot esculenta and Brachypodium distachyon with 34 samples.

Results

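Regions of CHH methylation (mCHH regions) in which small RNAs of 22 nt outnumbered all others together, called 22 nt regions here, were rare in the leaf methylomes of 6 flowering plants. A region was taken when it was at least 50 and under 2000 bp long, held at least 20 small RNA reads over the 6 deposited lengths (20, 21, 22, 24, 25 and 26 nt), and had more than 50% of them at 22 nt. This rule found 2484 regions, which were 0.999% of the 248751 regions of that length with 20 or more reads, among 809247 mCHH regions in all. There were 1018 in *C. sativus*, 1093 in *P. hallii*, 160 in *E. salsugineum*, 143 in *M. truncatula*, 69 in *R. communis* and 1 in *E. grandis*. Because the reads chose these regions, their read numbers, read shares and lengths are given below as a description with no test, and only their mCHH level, which comes from a separate assay, was tested.

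In plants, small interfering RNAs (siRNAs) of different lengths are cut by different Dicer-like proteins. Those of 24 nt are made by DCL3 from transcripts of RNA polymerase IV and guide RNA-directed DNA methylation (RdDM), in which the methyltransferase DRM2 adds methyl groups at cytosines in the CHH context (H being A, C or T). Those of 22 nt are made by DCL2, are best known from *A. thaliana* for post-transcriptional silencing and for starting the production of secondary siRNAs, and arise mostly from viruses, inverted repeats and some transposons. The chromomethylase CMT2 adds CHH methylation without small RNAs, so that a region can be methylated with or without matching siRNAs.

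The study sequenced the methylomes of a wide range of angiosperms, and deposited for 6 of them a list of mCHH regions with the small RNA content of each. Small RNAs came from leaves of *C. sativus* (cucumber, accession GY14), *E. grandis* (a eucalypt, BRAZUS1), *E. salsugineum* (a crucifer that lacks the chromomethylase CMT3, Shandong), *R. communis* (castor bean, no accession given), *P. hallii* (a grass, FIL2) and *M. truncatula* (a legume, F83), with 1 library per species. No plant was treated, and no age is given. The study's methods name another line than F83 for the methylome of *M. truncatula*, so its reads and its mCHH levels may come from different lines.

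Reads are counted here as hits, so that a small RNA matching several places without mismatch counts at each of them, whereas bisulfite reads that mapped to several places were removed before mCHH levels were computed. Regions of a repeat can therefore share reads, but not the reads behind their mCHH level. No species has a replicate, since each has 1 library and 1 region list. Intervals given for shares cover counting error only, and the depth behind the mCHH level of a region is unknown. The libraries differed widely in reads over mCHH regions, with 85314 in *E. grandis* as the fewest and 59349159 in *E. salsugineum* as the most, and *E. grandis* had only 595 regions with 20 or more reads. Its single 22 nt region was 0.168% of them (95% Wilson interval 0.0297 to 0.946%).

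The share of regions with 20 or more reads that were 22 nt regions was highest in *C. sativus*, at 3.41% (95% Wilson interval 3.21 to 3.62%). It was 1.07% (1.01 to 1.14%) in *P. hallii* and 0.786% (0.622 to 0.993%) in *R. communis*. It was 0.302% (0.256 to 0.355%) in *M. truncatula* and 0.266% (0.228 to 0.311%) in *E. salsugineum*. These intervals treat regions as independent and each species has 1 library, so differences between species were not tested. Regions dominated by 24 nt reads were far more frequent, with 15555 in *C. sativus*, 71331 in *P. hallii*, 56858 in *E. salsugineum*, 44681 in *M. truncatula*, 5711 in *R. communis* and 481 in *E. grandis*. Regions dominated by 21 nt reads, the length of most microRNAs, outnumbered 22 nt regions in 5 of 6 species, with 2319 in *P. hallii*, 1286 in *E. salsugineum*, 1263 in *R. communis*, 693 in *M. truncatula* and 75 in *E. grandis*. In *C. sativus* the order was the other way, with 114 regions dominated by 21 nt reads against 1018 by 22 nt reads.

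The species also differed in how much 22 nt RNA an ordinary region held. Over all regions with 20 or more reads, the median 22 nt share was 29.3% in *C. sativus* and 22% in *P. hallii*, the species with the most 22 nt regions. It was 17.4% in *E. salsugineum*, 11.7% in *R. communis*, 10.6% in *M. truncatula* and 8.57% in *E. grandis*. In *C. sativus* the region at the 90th percentile already reached 43.1%, against 34.6% in *P. hallii* and 18.2 to 26.5% in the other species. The 22 nt regions held a small part of the 22 nt reads in mCHH regions, at 3.78% in *C. sativus*, 1.70% in *E. grandis*, 1.61% in *R. communis*, 0.853% in *M. truncatula*, 0.490% in *P. hallii* and 0.146% in *E. salsugineum*.

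**Figure D1:**
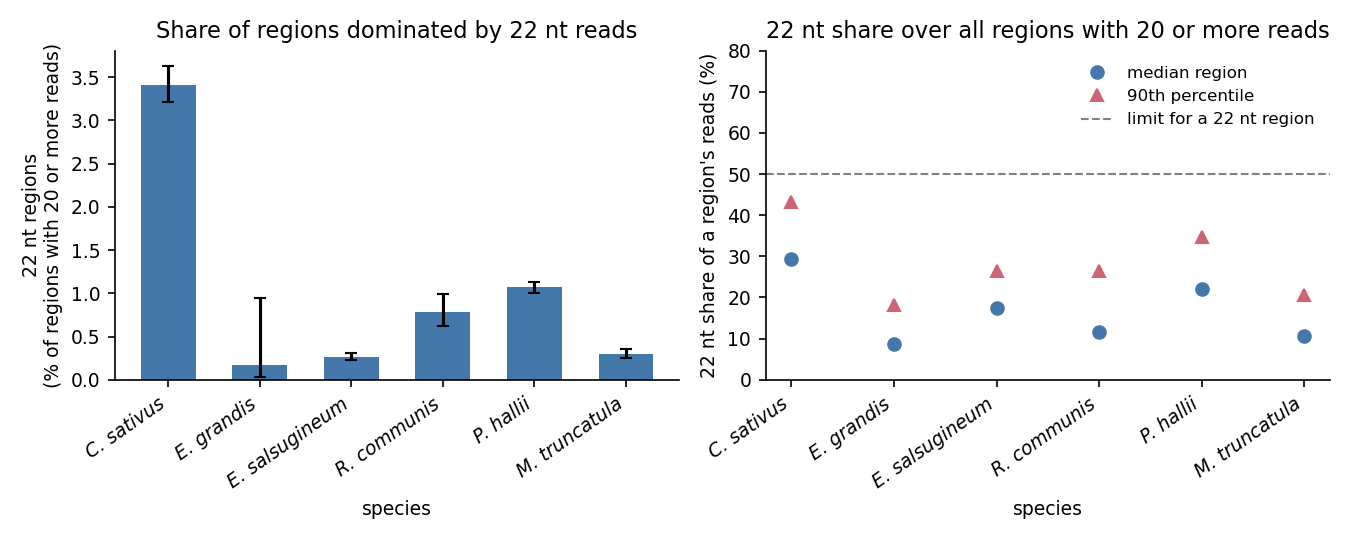
Left, the percentage of regions of at least 50 and under 2000 bp with 20 or more reads that were 22 nt regions, by species (bars; error bars, 95% Wilson intervals), with *C. sativus* highest at 3.41%. Right, the 22 nt share of reads in the median region (circles) and at the 90th percentile (triangles) of the same regions, in percent, where *C. sativus* comes closest to the limit of 50% (dashed line).

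Most 22 nt regions lay just past the limit. Their median 22 nt share was 55.0% in *C. sativus*, 55.6% in *P. hallii*, 55.7% in *M. truncatula*, 56.7% in *E. salsugineum* and 57.7% in *R. communis*, and the share was at most 60% in 78.0%, 82.7%, 74.8%, 68.1% and 59.4% of them. As a description of counting error only, the 95% Wilson interval of the share lay wholly above 50% in 371 regions and reached the limit in the rest. The 371 were 167 in *C. sativus* (16.4%), 94 in *P. hallii* (8.60%), 45 in *E. salsugineum* (28.1%), 41 in *M. truncatula* (28.7%), 23 in *R. communis* (33.3%) and the 1 in *E. grandis*. A share above 75% was found in 52 regions, of which 23 were in *C. sativus*, 14 in *P. hallii* and 5 in each of *E. salsugineum*, *R. communis* and *M. truncatula*. The share of regions past the limit also varied with the number of reads. Among regions with 20 to 49 reads, 1.80% were 22 nt regions in *P. hallii* and 0.554% in *E. salsugineum*, against 0.125% and 0.0931% of those with 300 reads or more. Classes of 50 to 99 and 100 to under 300 reads lay between these. In *C. sativus* the share was 4.59%, 2.54%, 2.62% and 2.69% from the lowest class to the highest. In *R. communis* it was 0.729%, 1.28%, 0.566% and 0.359%, highest at 50 to 99 reads, and the last value rests on 2 regions. In *M. truncatula* it was 0.279%, 0.179%, 0.392% and 0.389%. In *C. sativus*, *R. communis* and *M. truncatula* the share thus had no steady trend with the number of reads.

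The regions just inside and just outside the limit stood as follows. At a 22 nt share of 50 to 52%, the median mCHH level was 28.1% over 208 regions in *C. sativus*, 5.50% over 152 in *P. hallii*, 14.4% over 25 in *E. salsugineum*, 37.8% over 22 in *M. truncatula* and 29.1% over 7 in *R. communis*. At 48 to 50%, it was 29.2% over 467 regions, 4.99% over 460, 14.4% over 50, 32.2% over 35 and 27.8% over 22, in the same order. The gap was widest in *M. truncatula*, where regions just inside the limit had the higher level. There they were also shorter, with a median of 93.5 bp against 158, and had more reads, 175 against 79. With 20 to 22 reads there were 107, 131, 11, 10 and 6 of the 22 nt regions in that order, and 150, 206, 17, 13 and 7 regions with 17 to 19 reads met the rest of the rule.

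The length that came second in 22 nt regions was nearly always 24 nt. It was second in 990 of 1018 regions in *C. sativus*, 157 of 160 in *E. salsugineum*, 1027 of 1093 in *P. hallii*, 135 of 143 in *M. truncatula* and 54 of 69 in *R. communis*. The median region held 0.557 reads of 24 nt for each read of 22 nt in *C. sativus*, 0.625 in *E. salsugineum*, 0.583 in *P. hallii*, 0.616 in *M. truncatula* and, at the lowest, 0.50 in *R. communis*. Few of these regions were free of 24 nt reads, with 3 in *P. hallii*, 1 in *R. communis*, 1 in *M. truncatula* and 0 in the other species. Reads of 21 nt, which DCL4 makes from many of the same double-stranded templates as DCL2 in *A. thaliana*, outnumbered 24 nt reads in 18 regions in *C. sativus*, 40 in *P. hallii*, 8 in *R. communis*, 2 in *E. salsugineum* and 2 in *M. truncatula*. In *R. communis*, 26 nt reads came second in 5 regions, which is described below.

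Pooled over all 22 nt regions of a species, 22 nt reads were 55.8% in *C. sativus*, 57.7% in *E. salsugineum*, 55.6% in *P. hallii*, 56.2% in *M. truncatula* and, at the most, 65.2% in *R. communis*. The 24 nt reads were 30.2%, 34.3%, 32.7%, 33.1% and 17.6%, and the 21 nt reads 6.89%, 5.22%, 7.20%, 7.22% and 7.20%, in the same order. In the regions dominated by 24 nt reads, 22 nt reads were 24%, 17.5%, 20.8%, 10.4% and 15.8%, and 21 nt reads 6.95%, 4.97%, 8.94%, 6.84% and 9.20%. *R. communis* stood apart in its 22 nt regions by fewer 24 nt reads and by 5.53% of 25 nt and 2.19% of 26 nt reads, which were at most 1.64% and 0.210% in the other species with more than 1 such region. The 25 nt value rests on 1 region of 95 bp, described below, without which it was 1.71%, with 2.26% of 26 nt and 20.3% of 24 nt reads.

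**Figure D2:**
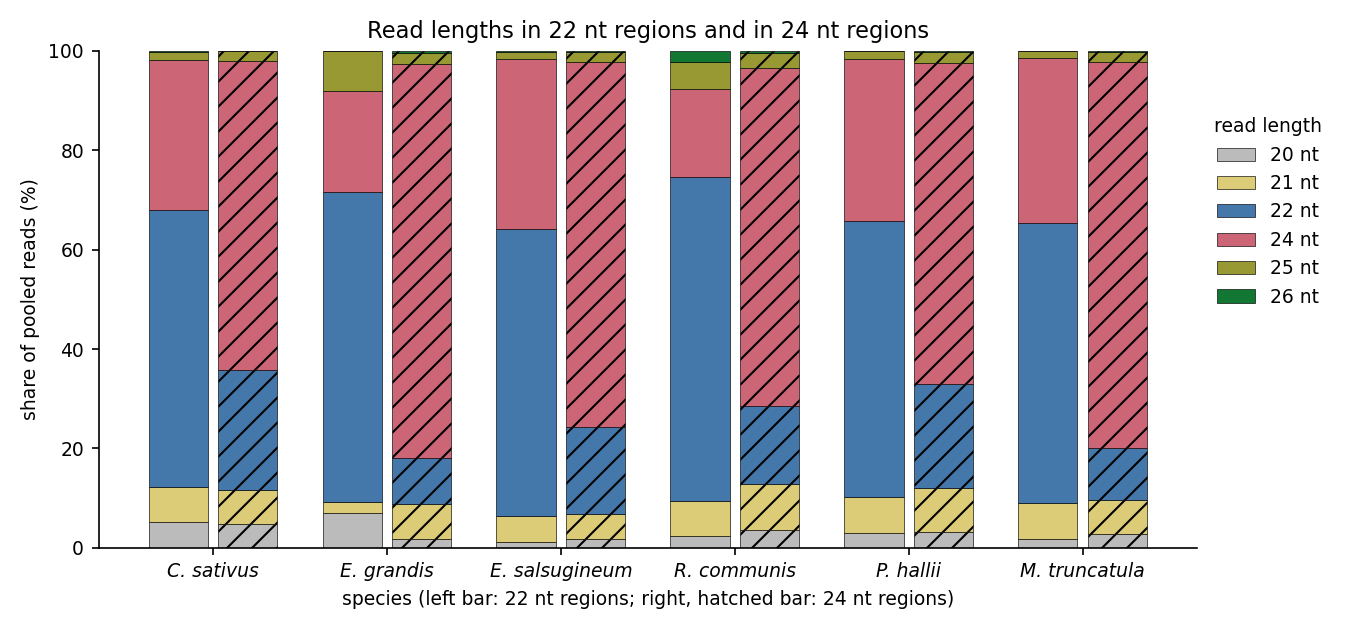
Percentage of pooled small RNA reads at each of 6 lengths in 22 nt regions (plain left bars) and in regions dominated by 24 nt reads (hatched right bars) of each species. In 22 nt regions the 24 nt share ranged from 17.6% in *R. communis* to 34.3% in *E. salsugineum* among the 5 species with more than 1 such region.

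A few regions carried much of the 22 nt reads in some species. The 10 regions with the most held 56.1% of the 22 nt reads of all 22 nt regions in *R. communis* (69 regions) and 41.6% in *E. salsugineum* (160). They held 18.0% in *M. truncatula* (143), 15.6% in *C. sativus* (1018) and 5.66% in *P. hallii* (1093). Because 10 regions are a larger part of a small set, these values are not on equal terms. In *E. salsugineum* (genome version 1.0) a single region on scaffold_3 from 12841975 to 12842375, 400 bp long, had 18.9% of them. It held 4803 reads, of which 2701 were of 22 nt, 1406 of 24 nt, 605 of 21 nt, 83 of 20 nt, 6 of 25 nt and 2 of 26 nt. Its 22 nt share was 56.2% (95% Wilson interval 54.8 to 57.6%) and its mCHH level 10.1%, below the median of its species. It was also the *E. salsugineum* region with the most 22 nt reads per kb, at 6753. Its 21 nt reads were 12.6% of its reads, against 5.22% pooled over all 22 nt regions there and 3.44% without it.

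In *R. communis* (version 0.1) the region with the most 22 nt reads was 95 bp long and lay from 243931640 to 243931735. It held 703 reads of 22 nt, 230 of 25 nt, 54 of 24 nt, 19 of 26 nt, 2 of 21 nt and 1 of 20 nt, so that 25 nt came second. Its 22 nt share was 69.7% (66.8 to 72.4%) and its mCHH level 31.7%. The region of at least 100 bp with the most 22 nt reads per kb, at 2308, lay from 161493375 to 161493583. It held 480 reads of 22 nt, 85 of 21 nt, 33 of 20 nt, 12 of 24 nt, 7 of 25 nt and 12 of 26 nt, with an mCHH level of 27.4%. In both regions 24 nt reads were a small share, but per kb they were above the median of 34.5 of the *R. communis* 22 nt regions, at 568 in the first, the highest of the 69, and 57.7 in the second.

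In the leading regions of the other species 24 nt reads came second, as in most 22 nt regions. In *C. sativus* (version 1.0) the one with the most 22 nt reads lay from 69776392 to 69776976, with 1819 of 2562 reads at 22 nt and 484 at 24 nt, and an mCHH level of 44.5%. Its 22 nt share of 71.0% was above the upper quartile of the *C. sativus* 22 nt regions, 59.5%. The densest one, from 120112498 to 120112644, held 931 reads of 22 nt and 734 of 24 nt among 1858, an interval of 47.8 to 52.4% that spans the limit, with an mCHH level of 34.9%. In *P. hallii* (version 0.5) the region from 431972237 to 431972468 had both the most 22 nt reads, 298 of 561, and the highest mCHH level of those of at least 100 bp, 64.2%, where the median of the 22 nt regions of the species was 5.80%. In *M. truncatula* (version Mt4.0v1) the region with the most 22 nt reads, on chromosome 7 from 25765023 to 25765431, had 258 of 458 reads at 22 nt and an mCHH level of 7.68%. The single region of *E. grandis* (version 1.1) lay on scaffold_2 from 4020796 to 4021937, and had 107 of 172 reads at 22 nt, 35 at 24 nt and an mCHH level of 6.21%.

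A pair of regions, named after their values were seen, came closest to pure 22 nt content. In *M. truncatula* all 24 reads of the region on chromosome 3 from 321 to 416, near the start of that sequence, were of 22 nt, and its mCHH level was 10.5%. In *E. salsugineum* the region on scaffold_8 from 3697153 to 3697302 had 134 of 146 reads at 22 nt, the largest share of that species at 91.8%, and an mCHH level of 40.6%.

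At the extremes of methylation among regions of at least 100 bp, 22 nt regions reached 89.6% mCHH in *C. sativus*, from 16760728 to 16760841, with 13 of 25 reads at 22 nt. The highest were 77.6% in *M. truncatula*, 61.9% in *R. communis* and 53.4% in *E. salsugineum*, with 15 of 28, 22 of 39 and 151 of 226 reads at 22 nt. The lowest were 5.28% in *C. sativus* (21 of 36 reads), 2.31% in *E. salsugineum* (16 of 25), 12.6% in *R. communis* (25 of 45), 1.55% in *P. hallii* (13 of 24) and 4% in *M. truncatula* (26 of 35). Apart from the *E. salsugineum* region with 151 reads of 22 nt and the *P. hallii* region above, each of these extremes rested on at most 45 reads.

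The 22 nt regions were shorter than the regions dominated by 24 nt reads in 5 of 5 species with more than 1 of them. The median length in bp was 232 for 22 nt and 282 for 24 nt regions of *C. sativus*, 246 and 343 for those of *P. hallii*, 245 and 426 for those of *E. salsugineum*, 122 and 198 for those of *M. truncatula*, and 374 and 511 for those of *R. communis*. They had fewer reads per region at the median in *C. sativus* (45 against 59), *E. salsugineum* (66 against 156) and *P. hallii* (46 against 81), and more in *R. communis* (47 against 36) and *M. truncatula* (110 against 73). Length and reads are part of the rule, so these differences were not tested.

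Most of the regions lay alone. Along each sequence, 931 of 1018 in *C. sativus*, 150 of 160 in *E. salsugineum* and 1042 of 1093 in *P. hallii* had no other 22 nt region within 5 kb, and in *R. communis* and *M. truncatula* none had one. The longest runs held 3 regions. One in *C. sativus* spanned positions 32400493 to 32407235, with 23, 17 and 21 reads of 22 nt, and one in *P. hallii* spanned 429457889 to 429459514, with 16, 28 and 19. In *M. truncatula* the 143 regions lay on 14 sequences, with 11 to 26 on each of the 8 chromosomes, or 0.214 to 0.450% of the regions with 20 or more reads there. The nearest regions with 20 or more reads on either side, up to 5 kb away, were mostly dominated by 24 nt reads, at 51.3% in *C. sativus*, 66.7% in *P. hallii*, 94.4% in *E. salsugineum*, 96.9% in *M. truncatula* and 74.4% in *R. communis*. Around the other regions this was 51.1%, 69.1%, 94.3%, 94.4% and 55.2%, in the same order, so that the gap was widest in *R. communis*, where 22 nt regions had 39 such neighbours. The neighbours' median 22 nt share was 30%, 21.7%, 18.1%, 11% and 13.6%, against 29.2%, 22%, 17.3%, 10.6% and 10.7% around the other regions. Of the neighbours of 22 nt regions, 58 of 1241 in *C. sativus* (4.67%), 38 of 1590 in *P. hallii* (2.39%) and 4 of 216 in *E. salsugineum* (1.85%) were 22 nt regions themselves, against 3.33%, 1.08% and 0.215% of the neighbours of other regions. In these 3 species 22 nt regions were thus a larger share of the neighbours of 22 nt regions than of those of other regions, with no test, while in *M. truncatula* and *R. communis* 0 of 160 and 0 of 39 neighbours were 22 nt regions. The files of *P. hallii*, *C. sativus* and *R. communis* place all regions on one sequence, which looks like joined scaffolds, so neighbours there can come from different scaffolds. What the annotation holds at these positions was not analysed here.

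Many 22 nt regions, far apart by the positions of the files, held like numbers of 22 nt reads. In *R. communis*, 17 of the 69 regions had 41 to 49 reads of 22 nt, while the next lower one had 30 and the next higher one 54. They were picked by eye on these reads, so the choice itself made them alike in 22 nt reads. They had 4 to 11 reads of 21 nt and 6 to 31 of 24 nt, lay at least 1.29 Mb apart by the positions of the file, and ranged from 80 to 1591 bp in length. A further 74 regions with 20 or more reads had as many reads of 22 nt without being 22 nt regions. Their mCHH levels ran from 19.4 to 53.0%, with a median of 25.3%. Another 5 of the 22 nt regions had 112 to 116 reads of 22 nt, 9 to 12 of 24 nt, 3 to 8 of 21 nt and 12 to 16 of 26 nt, and these are the 5 in which 26 nt came second. By the positions of the file, which seems to join scaffolds, they lay at least 22.04 Mb apart. Their mCHH levels were closer together, from 20.6 to 33.3%.

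In *M. truncatula* the 22 nt reads fell into bands, whose limits were chosen after the values were seen. There were 64 regions with up to 45 reads of 22 nt, 51 with 64 to 140, 26 with 167 to 202, and 2 with more. The 26 regions of the third band lay on all 8 chromosomes and held 42.7% of the 22 nt reads of the 22 nt regions of the species. They had a median of 40.5 reads of 21 nt and 119.5 of 24 nt, and a median length of 97.5 bp. A further 181 regions with 20 or more reads had 167 to 202 reads of 22 nt without being 22 nt regions. Their mCHH levels ran from 5.88 to 76.4%, with quartiles of 25.5 and 62.7%. Nearly the same number of 22 nt reads was therefore found with low, middle and high mCHH. The number is not scaled for length, which ran from 52 to 1245 bp. Per kb, these regions held 155 to 3769 reads of 22 nt.

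In *P. hallii*, 276 of 1093 regions (25.3%) had exactly the same 6 read numbers as another 22 nt region. Of all its regions with 20 or more reads, 18.98% shared their numbers with another. With 50 reads or more, 78 of 446 of its 22 nt regions (17.5%) shared their numbers with another 22 nt region, against 1.93% of the other regions with 50 reads or more. Of the 446, 254 had 50 to 99 reads and 24 had 300 or more. Of all 66227 regions with 50 or more, 21906 and 19233 did. Equal numbers are likelier with fewer reads, so these shares are not on equal terms. The largest set had 16 regions with 28 reads of 22 nt, 16 of 24 nt and 3 of 21 nt, whose mCHH levels ran from 5.06 to 20.8% and whose lengths ran from 69 to 402 bp. In the other species the share was lower than, or about equal to, that of all regions with 20 or more reads. However, 22 nt regions were matched only with 22 nt regions, and all regions with all regions. Matches are fewer in a smaller pool, so these shares cannot show whether 22 nt regions repeat less. Sets covered 120 of 1018 in *C. sativus* (11.8% against 12.9%), 4 of 160 in *E. salsugineum* (2.5% against 12.1%), 4 of 143 in *M. truncatula* (2.80% against 21.3%) and 0 of 69 in *R. communis* (against 17.4%), and no 22 nt region with 50 reads or more outside *P. hallii* was in one. By a looser rule, chosen after the data were seen, 22 nt regions with 40 or more reads were put together when the square roots of each of the 6 numbers lay within 0.5 of those of a central region, and groups of 5 or more were kept. Such groups held 325 of 601 regions in *P. hallii*, 155 of 571 in *C. sativus*, 20 of 103 in *M. truncatula*, 5 of 45 in *R. communis* and 0 of 102 in *E. salsugineum*. The 5 in *R. communis* had 22 to 27 reads of 22 nt, and so lay outside the sets named above for that species. Whether one set of reads was counted at all regions of such a group was not tested, so they cannot be taken as independent loci.

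**Figure D3:**
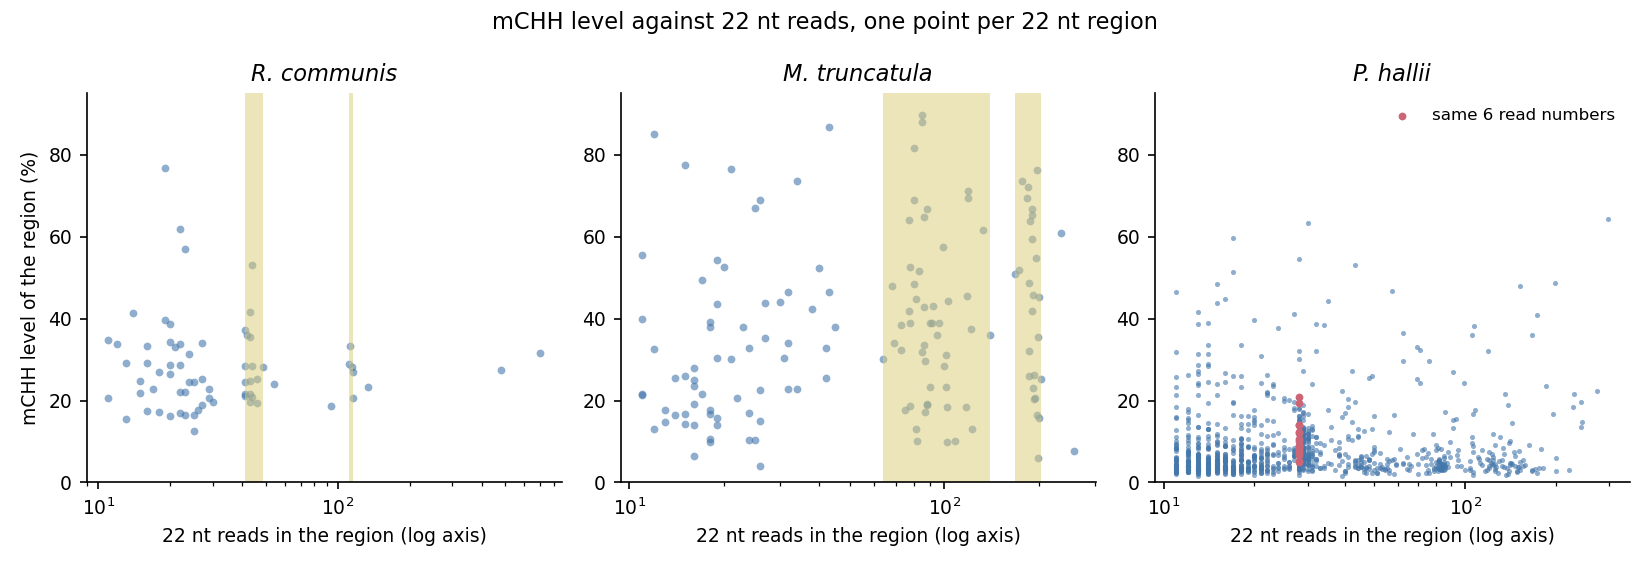
The mCHH level (percent) of each 22 nt region against its number of 22 nt reads (log axis) in *R. communis*, *M. truncatula* and *P. hallii*, one point per region. Shaded are the bands of 41 to 49 and 112 to 116 reads in *R. communis* and of 64 to 140 and 167 to 202 reads in *M. truncatula*, and red points mark the 16 *P. hallii* regions with the same 6 read numbers, whose levels ran from 5.06 to 20.8%.

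The median mCHH level of 22 nt regions was close to that of the other regions with 20 or more reads in each species. It was 27.3% (quartiles 17.3 and 41.2%) against 26.4% in *C. sativus*, 15.2% (10.5 and 23.9%) against 14.4% in *E. salsugineum* and 34.0% (19.8 and 50.2%) against 32.1% in *M. truncatula*. It was 25.4% (20.9 and 33.3%) against 27.9% in *R. communis* and 5.80% (3.82 and 9.71%) against 5.99% in *P. hallii*. The difference was thus positive in 3 and negative in 2 of 5 species, with a median of 0.816 percentage points and a range of -2.53 to 1.92 (exact two-sided sign test on 5 species, p = 1, and 1 after Benjamini-Hochberg adjustment over 4 tests). With 5 species the smallest p of this test is 0.0625, so no result could pass 0.05, and *E. grandis* entered no test. Against the regions dominated by 24 nt reads, whose medians were 27.1%, 14.4%, 32.2%, 27.6% and 6.40% in the same order, the difference was again positive in 3 of 5 species, with a median of 0.140 and a range of -2.24 to 1.79 (exact two-sided sign test, p = 1, adjusted p = 1). Differences of this size were small beside the quartiles of any one species.

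Length bears on this comparison, since 22 nt regions were shorter than the others and, in most species, the shorter regions had the higher mCHH levels. Of the 22 nt regions, 41.4% were under 200 bp in *C. sativus*, 38.1% in *E. salsugineum*, 35% in *P. hallii*, 74.1% in *M. truncatula* and, at the fewest, 27.5% in *R. communis*, against 29.9%, 22.4%, 23.5%, 50.6% and 20.5% of the other regions. Within classes of 50 to under 200, 200 to under 500 and 500 to under 2000 bp, weighted by the number of 22 nt regions, the difference from the other regions was below 0 in each of 5 species, with a median of -0.448 percentage points (exact two-sided sign test, p = 0.0625, the smallest this test can give). Against regions dominated by 24 nt reads it was -1.03, also below 0 in each of 5 species (p = 0.0625, exact two-sided sign test). The direction of the median thus turned with this setting. Not every class difference was negative, since in *E. salsugineum* they were 0.234 and 0.391 percentage points in the longer classes, and in *M. truncatula* they were 0.830 in the shortest class and 1.12 in the longest, where 11 of its 22 nt regions lay.

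The 21 nt regions were the group from which 22 nt regions differed most in some species. The median mCHH level of 22 nt regions was higher by 14 percentage points in *C. sativus*, where 21 nt regions stood at 13.3%, and by 11.3 in *M. truncatula*, where they stood at 22.7%. It was lower by 5.09 in *R. communis*, where they stood at 30.4%, and differed by -0.536 in *P. hallii* and -0.132 in *E. salsugineum*. The sign was positive in 2 of 5 species (median -0.132, exact two-sided sign test, p = 1, adjusted p = 1), so the species did not share a direction. With a minimum of 10 reads the difference in *R. communis* was -0.852, and from 100 bp that in *M. truncatula* was 5.97.

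**Figure D4:**
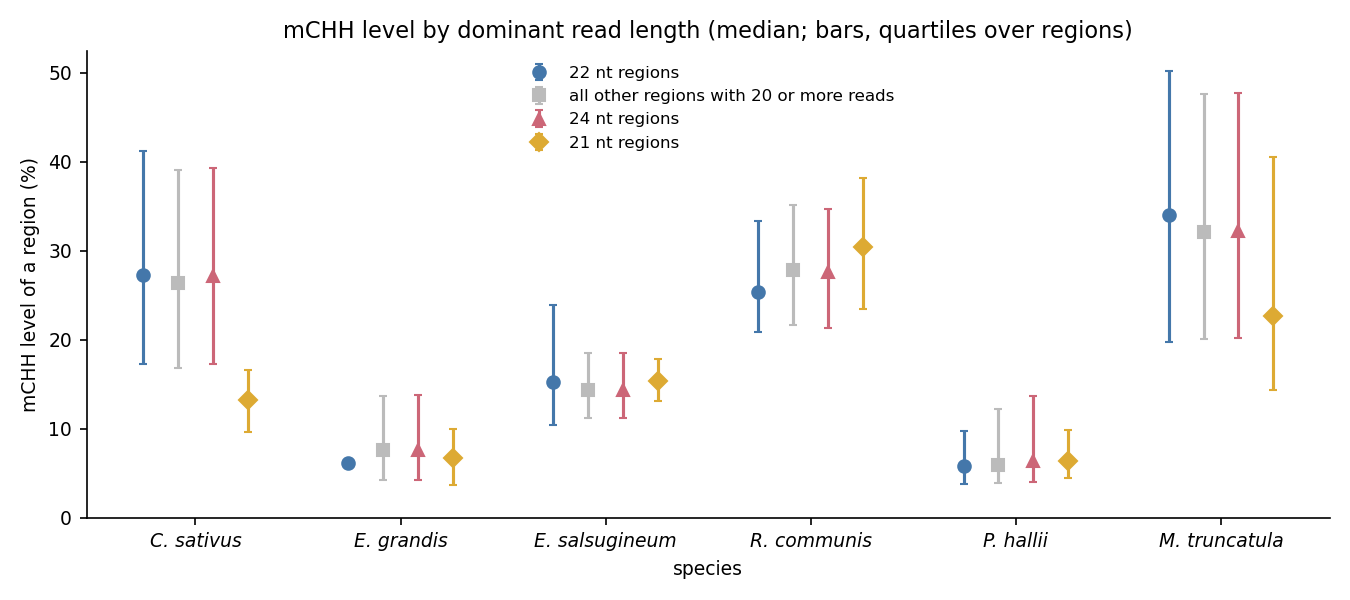
Median mCHH level in percent (points) with quartiles over regions (bars) for 22 nt regions, all other regions with 20 or more reads, 24 nt regions and 21 nt regions of 6 species. The first 3 groups lie close together in each species, while 21 nt regions lie lower in *C. sativus* (13.3%) and *M. truncatula* (22.7%).

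High and low levels were counted as well. Above 25% mCHH lay 565 of 1018 of the 22 nt regions in *C. sativus* (55.5%, against 53.6% of all regions with 20 or more reads), 93 of 143 in *M. truncatula* (65.0% against 63.8%) and 36 of 69 in *R. communis* (52.2% against 61.7%). In *E. salsugineum* there were 37 of 160 (23.1% against 10.7%), and in *P. hallii* 58 of 1093 (5.31% against 10.6%). In *E. grandis* the 1 region was not among them, where 8.24% of all regions were. The share was thus near that of all regions in *C. sativus* and *M. truncatula*, above it in *E. salsugineum* and below it in *P. hallii* and *R. communis*. Below 5% lay 447 of 1093 in *P. hallii* (40.9% against 40.1%), 6 of 160 in *E. salsugineum* (3.75% against 2.05%) and 1 of 143 in *M. truncatula* (0.699% against 0.133%). There were 0 of 1018 in *C. sativus*, 0 of 69 in *R. communis* and 0 of 1 in *E. grandis*, where 0.536%, 0.0911% and 32.8% of all regions lay below 5%. In *E. salsugineum* the 22 nt regions were more spread out, mostly at the upper end. Their interquartile range was 13.4 percentage points against 7.32 for the other regions. The upper quartile was 23.9% against 18.5%, and the lower quartile 10.5% against 11.2%.

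Within the 22 nt regions, those with more 24 nt reads per kb had higher median mCHH levels in 5 of 5 species. Regions were split at the median of their 24 nt reads per kb in each species. The median mCHH level of the upper and the lower group was 33.3 and 20.8% in *C. sativus*, 7.21 and 4.88% in *P. hallii*, 18.2 and 13.2% in *E. salsugineum*, 42.3 and 24.3% in *M. truncatula*, and 30.2 and 22.8% in *R. communis*. The median difference was 7.38 percentage points, from 2.34 in *P. hallii* to 18.0 in *M. truncatula* (exact two-sided sign test, p = 0.0625, the smallest it can give, and 0.25 after adjustment over 4 tests). With only regions whose lower Wilson limit was above 50%, the upper group was higher in 4 of 5 species (p = 0.375, exact two-sided sign test) and -1.02 in *E. salsugineum*. With a minimum of 50 reads it was 0.484 in *E. salsugineum* and 0.469 in *P. hallii*. The other regions with 20 or more reads, split in the same way, had medians of 32.8 and 20.8%, 7.69 and 4.95%, 15.4 and 13.4%, 39.5 and 25.1%, and 30.4 and 25.7%, in the same order. The same direction was thus found outside the 22 nt regions.

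The upper groups were also shorter, with a median length in bp of 172 where the lower group had 296 in *C. sativus*, 186 and 344 in *P. hallii*, 181.5 and 308 in *E. salsugineum*, 87 and 157 in *M. truncatula*, and 189.5 and 720 in *R. communis*. Over length classes with at least 5 regions in each group, the weighted difference had a median of 6.63 percentage points. It was above 0 in each of 5 species (p = 0.0625, exact two-sided sign test). In *R. communis* only the class of 200 to under 500 bp entered, with 15 and 8 regions, and its difference is this median. The longest class of *M. truncatula* was also left out, with 2 regions in the upper group. The exceptions among single classes were the shortest of *R. communis*, at -4.32 with 1 region in the lower group, and the longest of *P. hallii*, at -0.545. Of these, only the *P. hallii* class entered the weighted value.

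The density of 22 nt reads went with the mCHH level about as closely, but it is tied to the density of 24 nt reads. Both are divided by the length of the region, and 24 nt reads nearly always came second by number. Their values therefore cannot be told apart here. Across 22 nt regions, which share a library and in part their reads, Spearman's rho of the mCHH level was 0.42 with 22 nt reads per kb and 0.44 with 24 nt reads per kb in *C. sativus* (n = 1018), 0.30 and 0.30 in *P. hallii* (n = 1093), 0.44 and 0.35 in *E. salsugineum* (n = 160), 0.48 and 0.48 in *M. truncatula* (n = 143), and 0.41 and 0.40 in *R. communis* (n = 69). With length it was -0.46, -0.38, -0.059, -0.49 and -0.43, in the same order, and with the 22 nt share it lay between -0.12 and 0.079. The rule selected on this share, and most 22 nt regions lay just past its limit. Values over so narrow a range cannot show whether the share and the mCHH level are related. Over all regions with 20 or more reads of the same species, rho with the 22 nt share lay between -0.023 and 0.081.

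**Figure D5:**
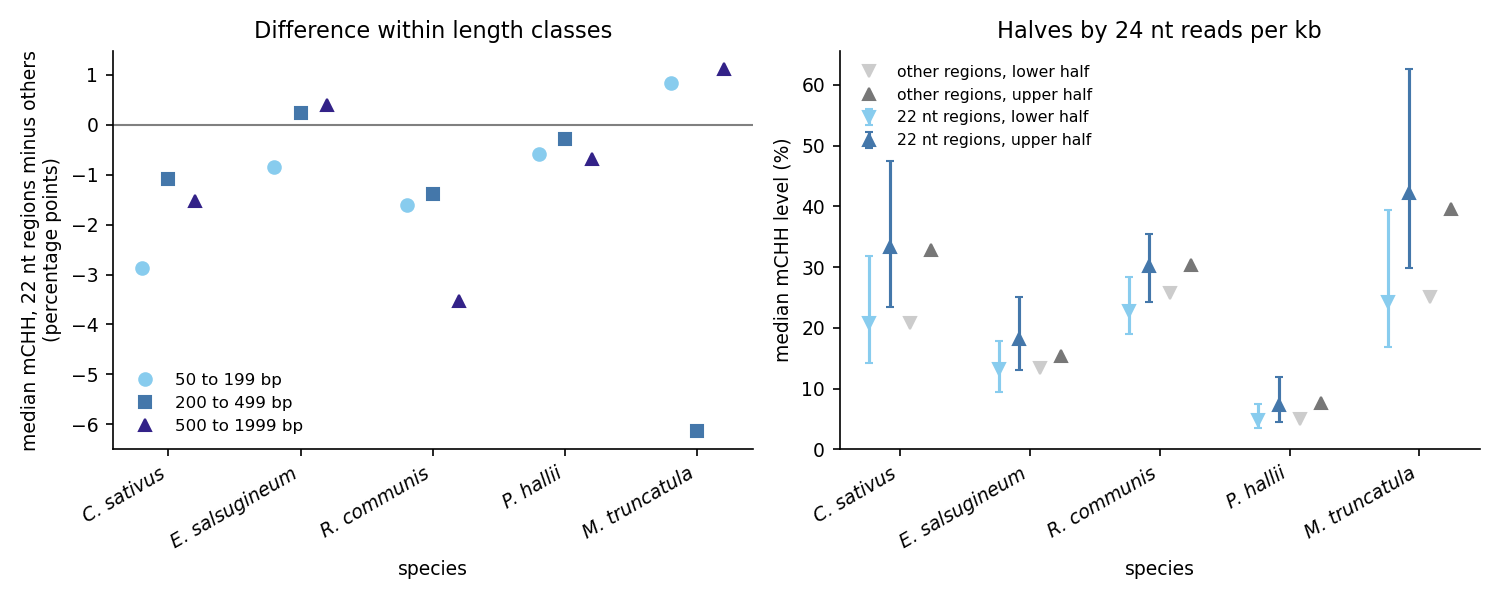
Left, the median mCHH level of 22 nt regions minus that of the other regions with 20 or more reads, in percentage points, within 3 length classes of 5 species (one point per class). Right, the median mCHH level in percent of 22 nt regions (blue, bars for quartiles) and of the other regions (grey) in the groups with fewer and with more 24 nt reads per kb, where the group with more is higher in 5 of 5 species for both kinds of region.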

How the data were processed

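The authors called CHH sites from MethylC-seq reads (Cutadapt, bowtie) by a binomial test, merged 25 bp windows holding a methylated site within 100 bp, and kept regions with at least 5 methylated cytosines. The mCHH level was deposited as a fraction. Small RNA reads were cleaned by the authors with the UEA toolkit, aligned with PatMan without mismatch, and deposited for each length as a fraction of all mapped hits. Reads of 23 nt have no column. Fractions divided by the smallest of each library gave whole numbers (within 0.01) for 100% of values, with mapped hits of 2614647 to 160311702. FPKM files of 3 species were not used.

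Regions were grouped with Python 3.11.15, NumPy 2.4.6, pandas 2.3.3 and SciPy 1.17.1, and plotted with Matplotlib 3.10.9. A species entered a sign test with at least 10 regions per group, and a length class counted with at least 5 per group. Statistics were tested on simulated data. The members and lists were chosen with earlier results of these data known. Named regions were, per species, those with most 22 nt reads, and, from 100 bp, most 22 nt reads per kb, highest and lowest mCHH, and the longest run within 5 kb. Alternatives changed the read minimum, the share, the interval, the length, repeated read numbers, means, length classes, the densest 1% of regions and, added after seeing the data, like read numbers. Positions are those of the files, with versions from the study's methods. Whether they count from 0 or 1 is not stated. No genome of these versions was used, so no sequence is shown.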

Additional observations from a re-analysis of the deposited data

Results flagged for a closer look

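The difference in median mCHH level between 22 nt regions and the other regions with 20 or more reads went in opposite directions in different species. It was 1.92 percentage points in *M. truncatula* and -2.53 in *R. communis*. Against regions dominated by 24 nt reads it was 1.79 in *M. truncatula* and -2.24 in *R. communis*, and against those dominated by 21 nt reads it was 14 in *C. sativus* and -5.09 in *R. communis*. Each species has 1 library, so these differences between species were not tested. The 107 reads of 22 nt in the single *E. grandis* region drew attention because that region entered no test.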

How the results depend on the processing

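The number of 22 nt regions, 2484, was 4693 with a minimum of 10 reads, 1120 with 50, 52 with a share above 75%, 3851 with shares of the 21, 22 and 24 nt reads only, and 371 with the lower Wilson limit above 50%. The median difference in mCHH level from the other regions turned to -0.281 percentage points from 100 bp and -0.448 within length classes. That from 24 nt regions turned to -0.527 with a share above 75%, -0.671 from 100 bp, -0.014 with equal read numbers counted once, -1.03 within length classes and -0.536 without regions of like read numbers. That from 21 nt regions turned to 4.04 with 50 reads, 5.11 with the Wilson limit and 2.03 with means. The difference by 24 nt reads per kb kept its direction, from 3.10 to 10.2 over 11 alternatives, of which a share above 75% rests on 1 species.

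Within species, directions also turned. Against the other regions, the difference became 2.08 in *R. communis* with 10 reads, -0.136 in *C. sativus* and 0.355 in *P. hallii* with a share above 75%, -3.06 in *M. truncatula* from 100 bp, and -1.90, -0.142 and -0.415 in *C. sativus*, *E. salsugineum* and *M. truncatula* within length classes. Against 24 nt regions, it became -0.189 in *C. sativus* and 1.90 in *R. communis* with 10 reads, -0.525 in *C. sativus* with a share above 75%, -0.258 and -3.28 in *C. sativus* and *M. truncatula* from 100 bp, -0.014 in *C. sativus* with equal numbers counted once, -1.74, -0.126 and -0.563 in *C. sativus*, *E. salsugineum* and *M. truncatula* within length classes, and -0.536 in *C. sativus* without like numbers. Against 21 nt regions, it became 4.04, 5.11 and 2.03 in *E. salsugineum* with 50 reads, the Wilson limit and means. By 24 nt reads per kb, it became -1.02 in *E. salsugineum* with the Wilson limit. Sizes moved as well. By 24 nt reads per kb, the difference was 0.484 in *E. salsugineum* and 0.469 in *P. hallii* with 50 reads, and 2.78 in *R. communis* with 10. Against 21 nt regions, it was -0.852 in *R. communis* with 10 reads and -2.74 with the Wilson limit, and 5.97 in *M. truncatula* from 100 bp. Against the other and the 24 nt regions, it was -0.869 and -0.549 in *R. communis* with the Wilson limit. The cause was not tested. No paired analysis was possible because each species has 1 small RNA library and 1 region list, with nothing to pair. The sign tests compare groups of regions within a species. One library per species, unknown methylome depth per region and reads counted at several places limit all of these values.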
